A study of Homo sapiens with 16 samples.

Results

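Stiff-selected MDA-MB-231 cells were compared with ancestral MDA-MB-231 cells, both on stiff extracellular matrix (ECM). MDA-MB-231 is an established human breast carcinoma line of the mesenchymal, claudin-low type, and all cells were wild type with no transgene or drug. Stiff ECM was a polyacrylamide gel with a Young's modulus of 308 kPa that carried type I collagen, although the names of the columns give 3 kPa for these libraries. Stiff-selected cells had been grown on such gels for 75 days, with 20000 cells passaged onto fresh gels each time. Ancestral cells were the starting population on the same kind of gel, and how long they stayed on it before RNA extraction is not given in the sources used here. Each group had 4 libraries of ribodepleted total RNA, 8 in all of the 16 in the series. The other 8 were of ancestral cells on soft ECM and of soft-selected cells, a separate population grown on soft gels for 75 days. Whether the 4 libraries of a group came from separate cultures, or from selected lines that were pooled, is not given either, so that p-values measure the spread between these libraries, which may be technical. The names of the ancestral libraries carry one prefix and those of the selected libraries another, and what the prefix stands for is not given. Any difference that it marks and the effect of selection cannot be told apart.

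Cells read the stiffness of their ECM through integrins, which join collagen and other ligands outside the cell to actin and myosin inside it. On a stiff surface, spread cells build focal adhesions and stress fibers, and the transcriptional coactivator YAP enters the nucleus.

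The gene table gave FPKM, fragments scaled by the length of the gene and the size of the library, for 19468 genes. A gene was tested when its FPKM was 1 or more in at least 4 of the 8 libraries, which kept 12231 genes and left out 7237. Of the genes kept, 114 passed only because all 4 selected libraries reached 1 while no ancestral library did, and 30 the other way round. Stiff-selected libraries held 36304705 to 44216335 reads assigned to genes and ancestral libraries 45800340 to 55301346. Of 6 claudin-low mesenchymal markers of the line, 1 was under 1 FPKM in all 8 libraries, and others were abundant. VIM was at an FPKM of 1939 to 2328 and AXL at 435 to 563 over the 8 libraries. CD44 was at 388 to 402 in selected and 453 to 572 in ancestral libraries (log2 fold change -0.31, adjusted p = 0.003, called down). Without selected replicate 3 the CD44 call was lost (log2 fold change -0.3, adjusted p = 0.01). Markers of luminal and of basal breast cells were present in part. Of 8 luminal genes, 4 were under 1 FPKM in all libraries, among them ESR1, PGR and FOXA1, but the 8 summed to 921 to 1073 in selected and 967 to 1080 in ancestral libraries, with KRT8 at 401 to 586 and KRT18 at 395 to 472. GATA3, another luminal marker, was at 5.08 to 6.76 in selected and 10.4 to 13.4 in ancestral libraries. Of 6 basal genes, 3 were under 1 throughout, KRT17 reached 1.29 in 1 selected library, and the sum was 78.9 to 91.6 against 107 to 118, most of it from EGFR. The epithelial marker EPCAM was at 9.39 to 14.1. CDH1, which encodes E-cadherin, was at 0.0512 to 0.11 in selected and 0.115 to 0.505 in ancestral libraries, too low to be tested. Of markers of other cells, PTPRC, LYZ, HBB, DCN, CDH5 and VWF were at 0.522 or less, and 5 of 7 fibroblast, 6 of 7 blood and 4 of 5 endothelial markers were under 1 in all libraries. The others were low, with COL1A1 at 2.06 to 2.2 in selected and 1.41 to 1.57 in ancestral libraries (called up), PDGFRB at 1.01 to 2.26 and 2.25 to 2.59, CD14 at 0.822 to 1.93 and 2.19 to 3.33 (called down) and PECAM1 at up to 1.17. Without selected replicate 1 or 3 or ancestral replicate 1 the CD14 call was lost (log2 fold change -0.63 to -0.57, adjusted p = 0.01 to 0.013), and without any 1 library other than ancestral replicate 3 that of COL1A1 was (log2 fold change 0.32 to 0.35, adjusted p = 0.01 to 0.014). Their part in the results was not tested. Since whole populations were sequenced, fewer cells of one kind and less RNA per cell cannot be told apart.

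Stiff-selected cells differed from ancestral cells in 3546 genes at an adjusted p under 0.01 (limma with Benjamini-Hochberg adjustment), 29.0% of the genes tested. Of these, 2209 were up-regulated, 18.1% of all genes tested, and 1337 were down-regulated, 10.9% of them. An unadjusted p under 0.05 was reached by 6288 genes. The typical change was modest, with a median size of 0.44 on the log2 scale among called genes, and only 230 of them, 1.88% of the genes tested, changed at least 2-fold (130 up and 100 down). Every selected library lay above every ancestral one in 2800 genes, or 22.9%, and below it in 1679, or 13.7%. The balance of directions depended on how libraries were scaled. Up-regulated genes made up 62.3% of the calls on FPKM, and counts were 2648 up and 1113 down on TPM, against 1730 and 1750 after scaling by the median of ratios. Gene lists are read below against the shares of all genes, 18.1% up and 10.9% down, and in 14 of 33 lists the direction with more calls turned with at least 1 of 5 other scalings (TPM, median of ratios, quantile normalization, chromosome medians removed, trend with coding length removed). Genes with low values were higher in selected cells in general. With genes cut by mean FPKM into 5 classes of equal size, the median log2 fold change was 0.16 in the lowest class (2447 genes) and -0.02 in the highest, and the 25th percentile of FPKM over all genes was 0.305 to 0.38 in selected and 0.224 to 0.254 in ancestral libraries. The part of this shift in the results on weakly expressed genes was not tested.

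**Figure D1:**
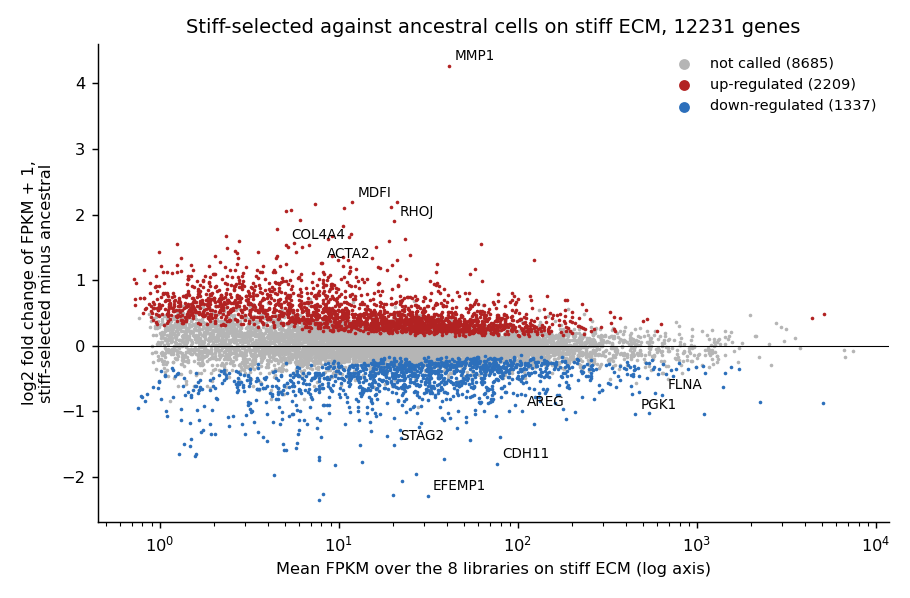
The plot sets the log2 fold change of FPKM + 1 (vertical axis, stiff-selected minus ancestral) against mean FPKM over the 8 libraries on a log axis, with 1 point for each of 12231 genes. Up-regulated genes (2209, red) lean to low FPKM and down-regulated genes (1337, blue) are spread up to the highest levels, with MMP1 alone above a log2 fold change of 4.

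The 15 genes with the largest rise had varied roles, with the collagenase MMP1 first. They were taken among called genes whose groups did not overlap and whose higher mean was at least 5 FPKM, so that a lack of overlap in these genes is part of how they were chosen. MMP1, which cleaves fibrillar collagen, had an FPKM of 78.3, 55.2, 133 and 53.7 in the 4 stiff-selected libraries, against 2.36, 2.65, 3.1 and 3.62 in the ancestral ones. Its log2 fold change was 4.27 (± 0.22 SE, adjusted p = 1e-09), and the lowest selected library was still far above the highest ancestral one. IL24, a cytokine of the IL-10 family, was at 38.1, 30.6, 51.1 and 22.7 against 5.03, 8.66, 6.26 and 7.24 (log2 fold change 2.19 ± 0.27 SE, adjusted p = 8e-06).

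Among the 15 were genes that act on transcription or on RNA. MDFI, which binds and blocks MyoD and its relatives, had 18.8, 17.2, 23.5 and 20.9 in selected and 3.61, 3.29, 3.01 and 4.59 in ancestral libraries (log2 fold change 2.19 ± 0.18 SE, adjusted p = 1.1e-07). ID2, an inhibitor of basic helix-loop-helix factors that responds to BMP signaling, was at 11.2, 12.9, 11.6 and 14.9 against 2.99, 1.16, 1.94 and 2.35 (log2 fold change 2.16 ± 0.22 SE, adjusted p = 9.8e-07). NR4A1, an orphan nuclear receptor induced as an immediate early gene, was at 13.3, 20.2, 16.2 and 21.6 against 6.34, 4.65, 4.47 and 4.23 (log2 fold change 1.66 ± 0.20 SE, adjusted p = 5.9e-06). In all 3 the selected and ancestral ranges were far apart. KHDRBS3, an RNA-binding splicing regulator, was at 14.5 to 22.5 against 4.06 to 5.6, with a log2 fold change of 1.70.

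Others of the 15 act in signaling or at the membrane. RHOJ, known from endothelial cells, had an FPKM of 32.9, 27.8, 33.4 and 36.4 against 7.14, 7.54, 8.09 and 9.14 (log2 fold change 1.90 ± 0.11 SE, adjusted p = 3.8e-09). PDE2A, a phosphodiesterase of cyclic nucleotides, was at 8.68, 7.89, 12.4 and 6.48 against 1.28, 1.41, 1.24 and 1.35 (log2 fold change 2.05 ± 0.13 SE). PDE8B, a phosphodiesterase specific for cAMP that is not among the 15, was at 11.9 to 16 against 3.29 to 4.31, with a log2 fold change of 1.62 (± 0.15 SE, adjusted p = 3.5e-07). GJA1, which encodes a connexin of gap junctions, was at 9.9, 9.37, 13.9 and 7.74 against 1.4, 1.97, 2.28 and 2.2 (log2 fold change 1.91 ± 0.13 SE). RCAN2, which binds and restrains calcineurin, was at 23.7 to 39.5 against 4.16 to 9.3, a log2 fold change of 2.12. The organic anion transporter SLCO1B3, whose near copy SLCO1B7 may share reads with it, was at 14.1 to 23.9 against 2.59 to 4.31 (log2 fold change 2.10). LRRC15, a membrane protein with leucine-rich repeats, was at 13.8 to 15.7 against 3.21 to 4.48 (log2 fold change 1.67). TULP2, FAM166A and the noncoding RNA LINC00452 completed the 15, with log2 fold changes of 2.07, 1.78 and 1.83.

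The 15 genes with the largest fall likewise had varied roles. EFEMP1, or fibulin-3, a glycoprotein of the ECM, had an FPKM of 8.36, 12.8, 7.84 and 11.3 in selected and 54.9, 53.9, 43.8 and 57.8 in ancestral libraries (log2 fold change -2.29 ± 0.14 SE, adjusted p = 5.8e-09). CEMIP, which takes part in the degradation of hyaluronan, was at 5.4, 8.22, 3.46 and 8.73 against 37.5, 33.5, 29.9 and 33.4 (log2 fold change -2.28 ± 0.18 SE, adjusted p = 9e-08). CDH11, a cadherin of mesenchymal cells, was at 26.9, 41.1, 24.9 and 43.7 against 148, 112, 103 and 113 (log2 fold change -1.80 ± 0.17 SE, adjusted p = 4.3e-07). It remained the most abundant of the 15 in selected cells in spite of its fall. TGFBI, a matrix protein induced by TGF-beta, was at 14.4, 18.8, 16.2 and 20.3 against 69.6, 57.4, 50.6 and 62.3 (log2 fold change -1.73 ± 0.16 SE, adjusted p = 3.5e-07). In CEMIP and CDH11, selected replicates 1 and 3 were both below selected replicates 2 and 4.

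ANXA8 and ANXA8L1 are nearly identical annexin genes and may share reads, so that their values of 1.05 to 2.82 against 12.4 to 16.3 and of 1.18 to 2.94 against 11.3 to 16.4 are one observation rather than a pair. SAA1 and SAA2, acute-phase proteins and likewise close paralogs, were at 7.23 to 10 against 32.8 to 41.8 and at 0.815 to 1.69 against 4.98 to 10.6. MYLK, the kinase that phosphorylates the regulatory light chain of myosin II, was at 4.51, 7.52, 3.74 and 7.06 against 22.3, 21.4, 21.3 and 19.7 (log2 fold change -1.77 ± 0.19 SE, adjusted p = 2.4e-06). The ranges of selected and ancestral libraries were well apart for this kinase. APCDD1L was at 5.45 to 14.4 against 39.9 to 46.7 (log2 fold change -1.96). NMU, which encodes the peptide neuromedin U, was at 2.52 to 4.25 against 9.96 to 19.5 (log2 fold change -1.82). HLA-DPA1 (class II antigen presentation), ADORA2A (an adenosine receptor), CCBE1 (a matrix protein needed for lymphatic growth) and ADGRF1 (an adhesion G protein-coupled receptor) had log2 fold changes of -1.74, -1.70, -1.59 and -1.59.

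**Figure D2:**
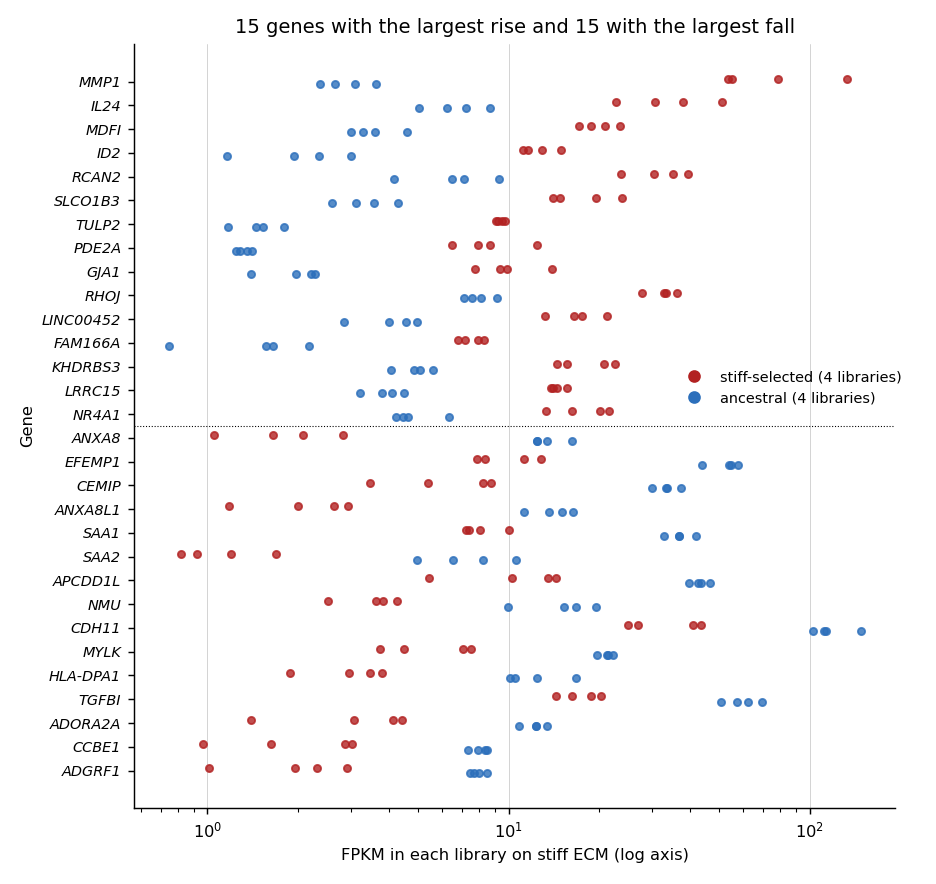
FPKM on a log axis is shown for the 15 genes that rose most (above the dotted line) and the 15 that fell most, with 1 red point for each of 4 stiff-selected libraries and 1 blue point for each of 4 ancestral libraries on stiff ECM. By the way the genes were chosen no red and blue points overlap within a gene, and the widest gap is that of MMP1, at 53.7 to 133 against 2.36 to 3.62.

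Down-regulated genes were concentrated on chromosome X. Of 387 genes tested there, 233 were down-regulated, or 60.2%, against 10.9% of all genes tested, and 11 were up-regulated. Genes of chromosome X had a median log2 fold change of -0.44, with the middle part of the distribution (25th to 75th percentile) from -0.61 to -0.21, and 87.6% of them were negative. The shift was present in every library. The chromosome's median deviation from the mean of the 8 libraries was -0.262, -0.127, -0.313 and -0.142 in selected replicates 1 to 4 and between 0.205 and 0.229 in the ancestral ones, on the log2 scale. It ran along the whole chromosome, with medians of -0.34 and -0.49 over its tested genes when they were cut in the middle of the gene order. With other scalings the median was -0.40 on TPM, -0.49 with median of ratios and -0.46 after quantile normalization. Of 11664 windows of 25 neighbouring genes in the genome, 293 had a median log2 fold change below -0.3, and all 293 lay on X.

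The named X genes fell by up to 1.52 on the log2 scale. STAG2, a subunit of the cohesin ring that holds sister chromatids together, had an FPKM of 7.91, 12, 7.6 and 13.5 in selected and 31.6, 30.4, 34.2 and 26.3 in ancestral libraries (log2 fold change -1.52 ± 0.15 SE, adjusted p = 8.8e-07). It closes the lowest window, which runs from CT83 to STAG2, holds 20 down-regulated genes of 25 and has a median of -0.62. PGK1, a glycolytic enzyme, was at 277, 330, 235 and 333 against 689, 602, 620 and 514 (log2 fold change -1.05 ± 0.11 SE, adjusted p = 1.7e-06). FLNA, the actin crosslinker filamin A, was at 474, 524, 411 and 506 against 806, 838, 821 and 750 (log2 fold change -0.75 ± 0.11 SE, adjusted p = 6.2e-05). MSN, which encodes moesin and ties actin to the membrane, was at 246 to 280 against 375 to 411 (log2 fold change -0.58 ± 0.05 SE). PJA1, a ubiquitin ligase, was at 2.99 to 4.04 against 8.76 to 9.68, and LAS1L, which takes part in ribosome assembly, at 15 to 18.1 against 29.1 to 32.2 (log2 fold changes -1.14 and -0.82). DOCK11, an exchange factor of Cdc42, had a log2 fold change of -0.85.

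Chromosome 14 stood apart in the other direction and chromosome 4 in the same direction as X. On chromosome 14, 169 of 391 tested genes were up-regulated, or 43.2% against 18.1% of all genes, and 10 were down-regulated, with a median log2 fold change of 0.23. Its median deviation was 0.092 to 0.146 in the selected and -0.136 to -0.081 in the ancestral libraries, without overlap. On chromosome 4, 122 of 435 genes were down-regulated and 36 up-regulated, with a median of -0.12, and the selected range of -0.109 to -0.025 lay below the ancestral range of 0.001 to 0.096. The medians of the other chromosomes lay between -0.06 (chromosome 21) and 0.09 (chromosome 17). Outside chromosomes 4, 14 and X, 1990 of 11003 genes rose and 972 fell, or 18.1% and 8.83%. With each chromosome's median deviation removed from every library, which was tried only once the data had been seen, 1654 genes rose and 1623 fell.

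Genes that rose on chromosome 14 had varied roles. PNP, a purine salvage enzyme, had an FPKM of 112, 101, 98.5 and 84.1 against 53.1, 56.6, 62.2 and 54.9 (log2 fold change 0.79 ± 0.08 SE, adjusted p = 2e-06). PRMT5, an arginine methyltransferase, was at 119, 111, 115 and 100 against 62.7, 71, 67.7 and 77.6 (log2 fold change 0.67 ± 0.07 SE). Both lie in the window from APEX1 to PRMT5, in which 17 of 25 genes were up-regulated with a median of 0.39. IRF9, a subunit of the transcription factor that answers type I interferon, was at 26.8 to 29.9 against 16.4 to 18.3 (log2 fold change 0.61). The secreted protein cochlin, from COCH, was at 3.56 to 5.13 against 1.25 to 1.61 (log2 fold change 1.20 ± 0.10 SE, adjusted p = 1.2e-07). CDH24, a type II cadherin, was at 22.9 to 23.9 against 8.26 to 11.2 (log2 fold change 1.20). EGLN3, a hydroxylase that marks HIF proteins for degradation, went against its chromosome, at 6.54 to 8.71 against 12.8 to 17.4 (log2 fold change -0.86 ± 0.10 SE, adjusted p = 6.2e-06).

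**Figure D3:**
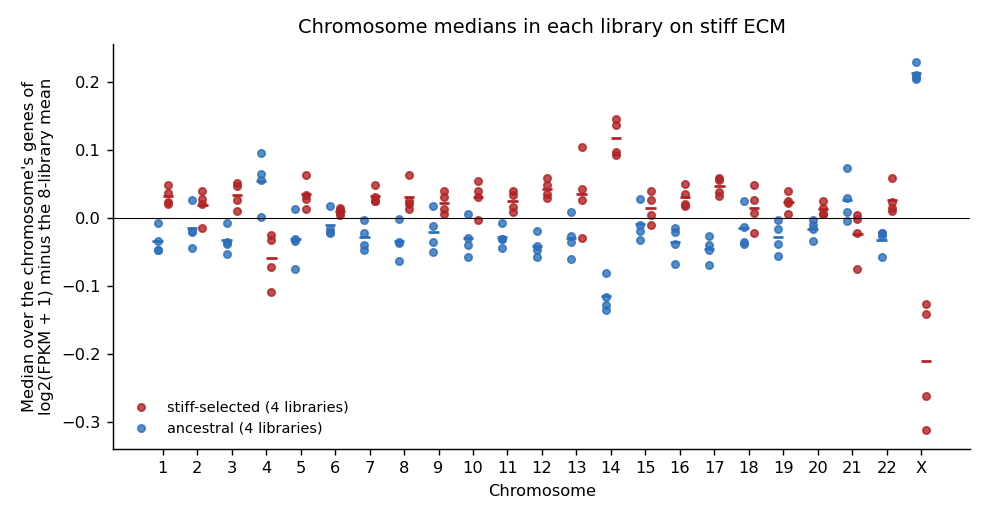
For each chromosome the plot gives the median over its tested genes of log2(FPKM + 1) minus the 8-library mean, with 1 point for each library (red, stiff-selected; blue, ancestral) and a bar for the mean of 4 libraries. Chromosome X lies at -0.313 to -0.127 in selected and 0.205 to 0.229 in ancestral libraries, and chromosome 14 shows the opposite order at a smaller size.

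**Figure D4:**
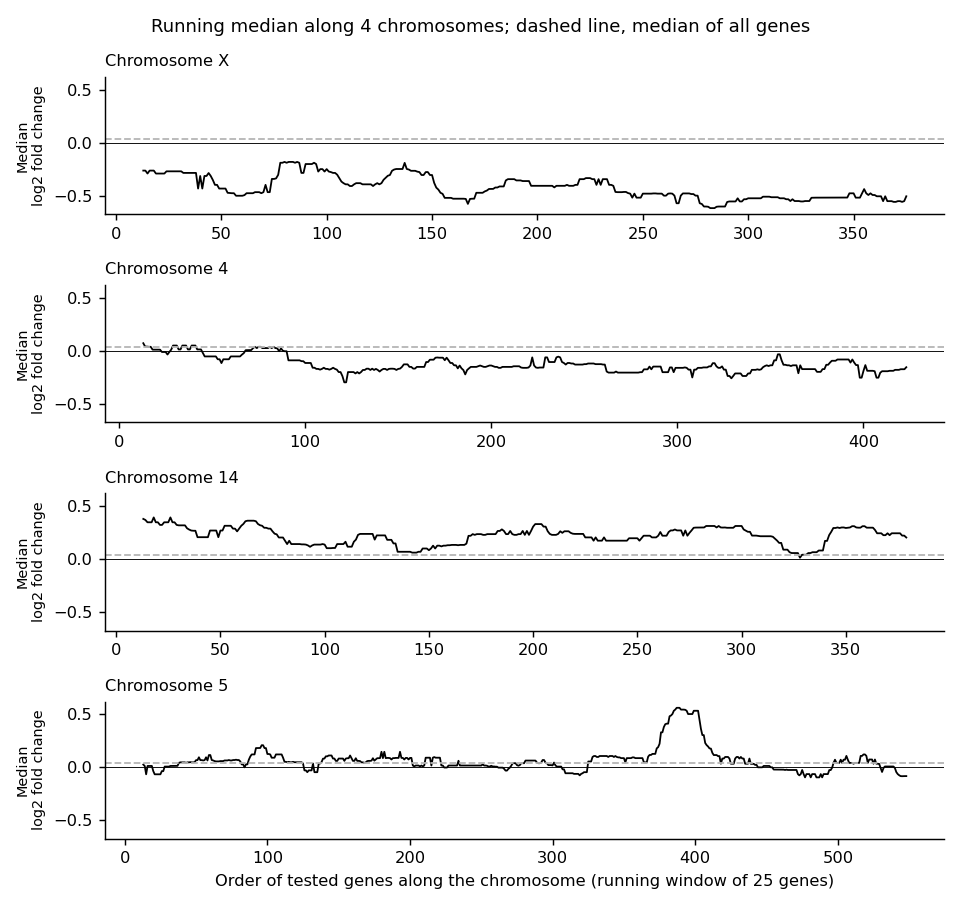
The running median of the log2 fold change over 25 neighbouring tested genes is drawn in gene order along chromosomes X, 4, 14 and 5, with the median of all genes, 0.04, as a dashed line. The line stays below zero along the whole of X, above it along nearly all of 14, and rises on chromosome 5 to 0.56 in the window from HARS2 to PCDHGA12.

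The peak on chromosome 5 held the clustered protocadherins, adhesion receptors that are made in combinations from neighbouring genes and bind their own kind on other cells. Of 53 members in 3 clusters, 23 passed the filter on low values. These 23 were 17 of the gamma cluster, all of them up-regulated, and 6 of the beta cluster, 4 of them up-regulated, while no member of the alpha cluster passed. Over the 23, 91.3% were up-regulated and none down-regulated, beside 18.1% and 10.9% of all genes tested. The median log2 fold change was 0.58, against 0.04 over all genes. Of the 23, 0 passed only because all selected libraries reached 1 FPKM while no ancestral library did. The other members did not pass the filter, so that the 23 do not stand for the whole family. PCDHB13 was at 11.1, 12.4, 12.3 and 13.8 against 7.44, 6.71, 6.55 and 7.44 (log2 fold change 0.73 ± 0.12 SE, adjusted p = 8.1e-05). PCDHGC3 was at 4.44, 5.22, 4.93 and 4.46 against 2.84, 3.03, 3.04 and 2.88 (log2 fold change 0.54 ± 0.07 SE, adjusted p = 1.1e-05). PCDHGA10 was at 2.5 to 3.28 against 1.38 to 1.5 (log2 fold change 0.69). The selected libraries were all above the ancestral ones in 20 of the 23, where 22.9% of all genes tested had this order. The gamma genes share their last exons and many members are near copies, so that reads may be split between them and the members are not separate observations. PCDHGC3 and PCDHGA10 lie in the lowest of the 5 classes by mean FPKM, where the median of all genes was 0.16, and the part of that shift in their rise was not tested.

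Classical cadherins and other adhesion molecules changed in both directions. Of 21 tested, 7 rose and 6 fell, or 33.3% and 28.6% beside 18.1% and 10.9% of all genes, and with median of ratios scaling 7 rose and 8 fell. CDH4, or R-cadherin, was at 48.7, 42.3, 44.1 and 37.5 in selected and 16.8, 24.2, 21.4 and 23.9 in ancestral libraries (log2 fold change 0.98 ± 0.10 SE, adjusted p = 1.2e-06). MCAM, an adhesion molecule of the immunoglobulin family, was at 89.8, 77.8, 84.8 and 68 against 33.3, 37.1, 35.7 and 33.3 (log2 fold change 1.17 ± 0.09 SE, adjusted p = 5.6e-08). NECTIN1, which helps to form adherens junctions, was at 10.2 to 11.8 against 5.56 to 6.17 (log2 fold change 0.78). With CDH24 above, these are members that rose where CDH11 fell. L1CAM, a neural adhesion molecule on chromosome X, was at 42.2 to 52.6 against 85.1 to 91.7 (log2 fold change -0.87).

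Actomyosin genes moved in both directions. Of 41 actomyosin and SRF target genes, 8 rose and 9 fell. The 19.5% that rose is near the 18.1% of all genes, and the 22.0% that fell compares with 10.9%. On TPM the counts were 11 and 8, and with median of ratios scaling 5 and 11. MYH9, the main nonmuscle myosin II heavy chain of these cells, was at 351, 373, 341 and 380 in selected and 510, 511, 512 and 433 in ancestral libraries (log2 fold change -0.44 ± 0.06 SE, adjusted p = 1.8e-05). The myosin kinase gene MYLK fell further, as given above. ACTA2, smooth muscle actin, was at 11.4, 11.4, 12.4 and 11.7 against 3.8, 3.99, 4.66 and 4.95 (log2 fold change 1.26 ± 0.08 SE, adjusted p = 1.2e-08). The actin depolymerizing protein destrin (DSTN) was at 314 to 350 against 483 to 566, and TAGLN2, an actin-binding protein, at 268 to 346 against 513 to 571 (log2 fold changes -0.62 and -0.73). SRF, the transcription factor that many of these genes answer to, was at 72.4 to 82.7 against 77.2 to 101 and did not pass the test (log2 fold change -0.10, adjusted p = 0.27).

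Most integrin genes that passed the test were lower in selected cells. Of 13 subunits tested, 4 fell and 1 rose, or 30.8% and 7.69%, with a median of -0.24. ITGB5, which pairs with the alpha V subunit to bind vitronectin, was at 41, 47.2, 38.2 and 45.5 in selected and 84.3, 80.5, 79.8 and 71 in ancestral libraries (log2 fold change -0.86 ± 0.08 SE, adjusted p = 2.9e-07). Its partner ITGAV was at 38.6, 41.1, 41.2 and 46.4 against 68.2, 58.3, 60.5 and 53.2 (log2 fold change -0.51 ± 0.07 SE, adjusted p = 2.2e-05). ITGB1, the common beta subunit of the collagen and fibronectin receptors, was at 373 to 400 against 462 to 551 (log2 fold change -0.37 ± 0.06 SE, adjusted p = 0.00011). ITGB4, of the laminin receptor in hemidesmosomes, was at 51.7 to 74.7 against 91.7 to 104 (log2 fold change -0.64). The one that rose was ITGB7, a subunit of leukocyte integrins, at 2.36 to 2.94 against 1.3 to 1.52 (log2 fold change 0.60).

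Among 33 focal adhesion components, 7 rose and 6 fell, or 21.2% and 18.2% beside 18.1% and 10.9% of all genes, and with median of ratios scaling 4 rose and 6 fell. Through the selected libraries alone 1 of the 33 passed the filter, so that it could only be higher. The tensins TNS2 and TNS3, adaptors that tie integrins to actin, went apart. TNS2 was at 42.7, 43.7, 53.3 and 48.6 against 26.8, 24.8, 24.7 and 29.4 (log2 fold change 0.81 ± 0.08 SE, adjusted p = 8e-07). TNS3 was at 28.8, 37.2, 23.7 and 42.4 against 83.9, 67.9, 61.7 and 66.6 (log2 fold change -1.09 ± 0.13 SE, adjusted p = 6.5e-06). TNS4 passed the filter on low values only through the ancestral libraries, at 0.284 to 0.579 against 1.36 to 1.89 (log2 fold change -0.81), so that it could only be lower and adds nothing to this. SRC, a tyrosine kinase active in focal adhesions, was at 15.9, 16.1, 14.6 and 16.1 against 23.9, 21.8, 20.4 and 23.5 (log2 fold change -0.49 ± 0.07 SE, adjusted p = 2.7e-05). KANK1, which links adhesions to microtubule capture sites, was at 10.6 to 12.1 against 6.83 to 7.75 (log2 fold change 0.54).

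YAP1 did not pass the test, with 156, 158, 159 and 158 in selected and 156, 162, 153 and 151 in ancestral libraries (log2 fold change 0.02 ± 0.05 SE, adjusted p = 0.76). Of 38 genes of the YAP and TEAD pathway and its targets, 10 rose and 7 fell, or 26.3% and 18.4%, and with the trend of fold change with coding length removed 6 rose and 8 fell. TEAD1 and TEAD2, the DNA-binding partners of YAP, were higher, at 196 to 207 against 139 to 150 (log2 fold change 0.49, adjusted p = 5.4e-07) and at 27.8 to 30.3 against 18 to 21.4 (log2 fold change 0.56, adjusted p = 3.2e-06). MOB1A, an activator of the LATS kinases that restrain YAP, was at 95.4 to 97.9 against 121 to 129 (log2 fold change -0.36). Of 22 target genes tested, 6 rose and 6 fell.

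Type IV collagen chains, the network formers of basement membranes, changed in both directions. COL4A3 and COL4A4 are neighbours on chromosome 2, share a promoter region and encode chains of 1 trimer. COL4A4 was at 7.58, 7.97, 9.12 and 7.43 in selected and 2.02, 2.14, 2.54 and 1.73 in ancestral libraries (log2 fold change 1.54 ± 0.13 SE, adjusted p = 1.2e-07), and COL4A3 at 2.71 to 3.45 against 0.61 to 0.841 (log2 fold change 1.22). COL4A3 passed the filter only through the selected libraries, so that it could only be higher. COL4A2, of the pair on chromosome 13, went the other way, at 9.87, 10.1, 12.4 and 10.2 against 19.5, 20.4, 22 and 16.6 (log2 fold change -0.82 ± 0.10 SE, adjusted p = 6.2e-06), and its neighbour COL4A1 was at 2.56 to 3.79 against 3.84 to 5.39 (log2 fold change -0.51). The third chain of the COL4A3 and COL4A4 trimer, COL4A5 on chromosome X, was at 0.103 to 1.23 against 2.6 to 3.87 (log2 fold change -1.35). COL4A5 reached 1 FPKM in all ancestral libraries and in 1 selected library. Of 6 chains 5 were tested, and 2 were called up and 3 down. LAMB1, a laminin chain, was at 88.5 to 91.7 against 53.8 to 65.2 (log2 fold change 0.57).

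Of 13 interstitial collagens tested, 6 fell and 3 rose, with a median of -0.19, and on TPM 5 fell and 4 rose. Together with the enzymes that modify them, 8 of 28 genes rose and 10 fell, or 28.6% and 35.7% beside 18.1% and 10.9% of all genes, and on TPM 10 rose and 9 fell. The filter was passed only through the ancestral libraries by 1 of the 28, which could thus only be lower. COL5A1, a fibril nucleator, was at 24.7, 31.9, 17.2 and 34.4 against 73.2, 61.4, 62.7 and 58.8 (log2 fold change -1.25 ± 0.14 SE, adjusted p = 3.3e-06). COL6A2, of the beaded filament collagen VI, was at 6.99, 9.77, 6.34 and 10.3 against 25.9, 22.2, 20.8 and 18.2 (log2 fold change -1.30 ± 0.17 SE, adjusted p = 1.8e-05). Selected replicates 1 and 3 had the lower values in both collagens. The lysyl oxidases, which crosslink collagen and elastin, were split between LOXL1, at 14.7 to 16.3 against 6.4 to 7.48 (log2 fold change 1.11, adjusted p = 1.7e-08), and LOXL2, at 76.7 to 108 against 163 to 174 (log2 fold change -0.85, adjusted p = 2.9e-07). LOXL4 was at 12.8 to 19.1 against 23.4 to 31.3 (log2 fold change -0.75).

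Matrix glycoproteins counted 4 up and 6 down of 22, or 18.2% and 27.3%, with EFEMP1 and TGFBI as the largest changes. LTBP4, which binds latent TGF-beta in the matrix, was at 35.2 to 41.4 against 23.6 to 25.7 (log2 fold change 0.61, adjusted p = 3.7e-06). Proteases and their inhibitors counted 12 up and 10 down of 47, or 25.5% and 21.3%, and 10 and 12 with chromosome medians removed. Through the selected libraries alone 1 of the 47 passed the filter, so that it could only be higher. MMP16, a membrane-bound collagenase, was at 11.5, 10.6, 12.9 and 12.3 against 5.34, 6.03, 6.2 and 6.39 (log2 fold change 0.87 ± 0.09 SE, adjusted p = 2e-06). In the plasminogen system the receptor and an activator went apart. PLAUR, the urokinase receptor, was at 112, 111, 134 and 112 against 60.2, 67.7, 58.9 and 82.9 (log2 fold change 0.80 ± 0.09 SE, adjusted p = 2.6e-06). PLAT, tissue plasminogen activator, was at 130, 121, 83.8 and 125 against 215, 219, 190 and 207 (log2 fold change -0.87 ± 0.11 SE, adjusted p = 6.9e-06). Cathepsin S (CTSS), a lysosomal protease that can act outside the cell, was at 2.79 to 4.59 against 8.16 to 11.5 (log2 fold change -1.20).

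In the EGF receptor and MAPK list, 9 of 50 genes rose and 10 fell. The 18% that rose is the share of all genes (18.1%), and 20% fell beside 10.9%. On TPM 12 rose and 7 fell. Through the selected libraries alone 1 of the 50 passed the filter, so that it could only be higher. AREG, which encodes the EGF receptor ligand amphiregulin, was at 63.6, 75.1, 61.5 and 78.1 in selected and 160, 141, 137 and 124 in ancestral libraries (log2 fold change -1.0 ± 0.08 SE, adjusted p = 8.6e-08). EGFR itself was at 70.5 to 82.7 against 96.8 to 107 (log2 fold change -0.37, adjusted p = 1e-04). Output and feedback genes of the pathway counted 5 up and 5 down of 29 tested (7 and 4 on TPM, 5 and 1 after quantile normalization). Feedback inhibitors that rose included SPRY1, at 16.2, 18.8, 22.8 and 20.5 against 12.2, 7.72, 9.14 and 7.79 (log2 fold change 1.02 ± 0.12 SE), and SPRY4, at 53.7 to 74.9 against 33.7 to 44.2 (log2 fold change 0.80). SPRED3, a relative of the Sprouty proteins, was at 4.95 to 6.12 against 1.82 to 3.26 (log2 fold change 0.86). The receptor tyrosine kinase ALK was at 1.7, 2.34, 3.11 and 3.12 against 0.654, 0.985, 1.4 and 1.15 (log2 fold change 0.79 ± 0.15 SE, adjusted p = 0.00031). MAP2K1, or MEK1, did not pass the test although its groups did not overlap, at 47.4 to 54.1 against 57.5 to 66.6 (log2 fold change -0.31, adjusted p = 0.022).

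CTNNB1, or beta-catenin, was at 179 to 208 against 177 to 223, with overlapping groups (log2 fold change -0.08, adjusted p = 0.36). Around it, 5 of 33 Wnt pathway genes rose and 5 fell, 15.2% each, and with median of ratios scaling 3 rose and 6 fell. DKK1, a secreted Wnt inhibitor, was at 119, 141, 98.1 and 124 against 236, 254, 227 and 221 (log2 fold change -0.96 ± 0.09 SE, adjusted p = 6.4e-07). RNF43, which removes Wnt receptors from the surface, was at 2.5, 3.31, 2.79 and 3.82 against 9.19, 8.76, 8.1 and 9.51 (log2 fold change -1.28 ± 0.16 SE, adjusted p = 1.3e-05). The ligand gene WNT7B was at 5.61 to 12.1 against 18.1 to 20.8 (log2 fold change -1.02), while TCF7L2 and TCF7, the DNA-binding partners of beta-catenin, were at 33.5 to 41.6 against 20 to 27 and at 5.62 to 7.78 against 3.14 to 4.86 (log2 fold changes 0.74 and 0.73).

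In the TGF-beta and BMP list, 7 of 35 genes rose and 9 fell, or 20% and 25.7%, and on TPM 10 rose and 8 fell. Targets and feedback members were mostly lower where called, with 6 down and 1, ID2, up of 16. PMEPA1, a feedback inhibitor induced by TGF-beta, was at 11.6, 11, 8.67 and 11.8 against 21.5, 21.6, 24.5 and 25.5 (log2 fold change -1.05 ± 0.11 SE, adjusted p = 1.1e-06). The ligand TGFB2 was at 67.6 to 84.5 against 95.2 to 114 (log2 fold change -0.51), and the ligand BMP6, which passed the filter only through the selected libraries and so could only be higher, at 1.04 to 1.42 against 0.234 to 0.481 (log2 fold change 0.72). Among 16 Notch genes, 5 rose and 2 fell, or 31.2% and 12.5% beside 18.1% and 10.9% of all genes. After quantile normalization 3 rose and 3 fell. HES1, a transcriptional repressor and direct Notch target, was at 44.3, 29.7, 50.1 and 38.3 against 29.4, 23.4, 23.5 and 21.3 (log2 fold change 0.70 ± 0.13 SE, adjusted p = 0.00047), and the lowest selected library was barely above the highest ancestral one. NOTCH2 was at 87.9 to 94.9 against 111 to 120 (log2 fold change -0.35).

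Among genes of NF-kB signaling more were lower than higher in selected cells, with 11 down-regulated and 2 up-regulated of 32, or 34.4% and 6.25% beside 10.9% and 18.1% of all genes, and a median of -0.18. The counts depended on scaling, with 7 down and 2 up on TPM and 14 down and 1 up with median of ratios. NF-kB is a family of transcription factors that switch on inflammatory genes. RELA, its main activating subunit, was at 118 to 131 against 99.7 to 135 (log2 fold change 0.14, adjusted p = 0.16). RELB was at 13.8, 12.2, 13.7 and 12.4 against 19.2, 17.2, 19.1 and 16.7 (log2 fold change -0.44 ± 0.10 SE, adjusted p = 0.0019). NFKB1 was at 19.3 to 22.1 against 22.8 to 24.9 (log2 fold change -0.23, adjusted p = 0.0074), and this call was lost when selected replicate 1, 3 or 4 or ancestral replicate 1, 2 or 3 was left out (log2 fold change -0.24 to -0.21, adjusted p = 0.012 to 0.028). Among targets, BIRC3, an inhibitor of apoptosis, was at 21.6, 23.5, 25.8 and 24.1 against 59.7, 48.7, 50.3 and 49.5 (log2 fold change -1.10 ± 0.09 SE, adjusted p = 7.7e-08). TRAF1, an adaptor of TNF receptors, was at 7.47 to 8.86 against 11 to 15.5 (log2 fold change -0.57). VCAM1, an adhesion molecule, wasat 0.112, 0.298, 0.0993 and 0.323 against 4.2, 2.48, 2.73 and 2.29 (log2 fold change -1.68 ± 0.15 SE, adjusted p = 2.3e-07). It passed the filter only through the ancestral libraries, so that it could only be lower.

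Chemokines, cytokines and acute-phase genes counted 16 down and 7 up of 52, or 30.8% and 13.5%. The filter was passed only through the selected libraries by 1 of the 52, which could thus only be higher. All 3 chemokines called were down-regulated, of 10 tested (5 with median of ratios scaling), and so were all 4 acute-phase and complement genes called, of 11. Over all genes tested 10.9% were down-regulated. SAA1 and SAA2, close paralogs, are both among the 4. CSF2, the growth factor GM-CSF, was at 4.63, 4.5, 3.29 and 3.85 in selected and 10.7, 9.6, 11.8 and 12.2 in ancestral libraries (log2 fold change -1.26 ± 0.15 SE, adjusted p = 6.6e-06). The membrane-bound chemokine gene CXCL16 was at 1.27 to 2.23 against 4.17 to 5.01 (log2 fold change -0.97). Cytokines were not lower throughout. IL18, a cytokine of the IL-1 family, was at 50, 48.5, 51.4 and 49 against 18.7, 22.6, 20.2 and 20.6 (log2 fold change 1.24 ± 0.09 SE, adjusted p = 3.7e-08), and IL24 rose as well.

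A motif of NF-kB, the letters GGGA and TTTCC with any 1 base between them, searched on both strands in the 250 bases before the transcription start, was present in 0.527% of 35116 RefSeq promoter windows (GRCh38.p14). A gene can have several windows, and by gene it was present in 0.763% of 9696 genes tested with a window, in 1.32% of 1062 down-regulated, 0.799% of 1753 up-regulated and 0.669% of 6881 uncalled ones. In the NF-kB list 2 of 8 down-regulated genes with a window held it, as did 7 of 18 that were not called and 1 of 2 up-regulated ones. In the chemokine and cytokine list 3 of 10 down-regulated, 1 of 6 up-regulated and 2 of 22 uncalled genes held it. A match is a description of the letters only. The up-regulated gene IL27RA, which has a single start, held it 68 bases before that start. The windows of CXCL1 and IL6, chosen for the motif among down-regulated genes with a single start in the table, are shown on their plus strand with the motif in capitals.
CXCL1, chr4:73869284-73869383, plus strand: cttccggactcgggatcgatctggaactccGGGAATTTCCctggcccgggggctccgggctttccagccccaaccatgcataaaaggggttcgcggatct
IL6, chr7:22727097-22727196, plus strand: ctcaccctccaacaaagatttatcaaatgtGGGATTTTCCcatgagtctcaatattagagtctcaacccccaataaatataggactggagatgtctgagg
The motif begins 79 bases before the start in CXCL1, a neutrophil chemokine, and 73 bases before it in IL6, an inflammatory cytokine. CXCL1 was at 3.56, 6.78, 4.51 and 4.75 against 10.9, 7.14, 8.29 and 10.3 (log2 fold change -0.79 ± 0.18 SE, adjusted p = 0.0023), and IL6 at 10.1, 12.4, 11.3 and 14.9 against 22, 18.2, 18 and 15.9 (log2 fold change -0.57 ± 0.14 SE, adjusted p = 0.003). In both genes 1 selected and 1 ancestral library lay close together. Without selected replicate 1 or ancestral replicate 1 the CXCL1 call was lost (log2 fold changes -0.68 and -0.71, adjusted p = 0.01 and 0.011), and without selected replicate 1 or 3 or ancestral replicate 1 that of IL6 was (log2 fold changes -0.50, -0.54 and -0.49, adjusted p = 0.011 to 0.015).

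Antigen presentation had the lowest median of the gene lists on FPKM, at -0.28, with 9 down-regulated and 2 up-regulated of 30, or 30% and 6.67%. Integrins were lower after quantile normalization (-0.25 against -0.24) and with the trend with coding length removed (-0.33 against -0.32). HLA-B, a class I chain, was at 121, 157, 119 and 158 against 328, 262, 259 and 267 (log2 fold change -1.01 ± 0.14 SE, adjusted p = 1.7e-05). PSMB8, an inducible subunit of the immunoproteasome, was at 19.6 to 20.5 against 29 to 40.3 (log2 fold change -0.78). Class I genes are close relatives and may share reads. TAPBPL, which edits the peptides that class I binds, was at 4.74 to 6.1 against 3.05 to 3.65 (log2 fold change 0.54).

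Among the 56 genes stimulated by interferon, 14 rose and 2 fell, or 25% and 3.57%, with a median of 0.09 beside 0.04 for all genes. With median of ratios scaling the counts were 12 and 5. OAS2, a sensor of double-stranded RNA, was at 15.5, 15.2, 14 and 17.7 against 8.33, 7.42, 7.86 and 7.54 (log2 fold change 0.91 ± 0.11 SE, adjusted p = 4.4e-06). DDX58, which encodes the RNA sensor RIG-I, was at 60.7 to 69.2 against 35.6 to 41 (log2 fold change 0.71), and IFI44 at 30.6 to 39.5 against 18.1 to 23.1 (log2 fold change 0.71).

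A motif of the transcription factor AP-1, TGANTCA, was searched in the same way. Of the 15 genes that rose most, 10 had a window and 4 of these held it, and of the 15 that fell most, 8 had a window and 0 held it. Over all genes tested with a window its share was 6.18%, and it was 7.82% in up-regulated and 6.31% in down-regulated genes. The 4 were GJA1, LRRC15, MDFI and RCAN2, of which the first pair has a single start in the table and is shown 5′ to 3′ on the strand of the gene, with the motif in capitals. It begins 48 bases before the start in both.
GJA1, chr6:121435546-121435645, plus strand: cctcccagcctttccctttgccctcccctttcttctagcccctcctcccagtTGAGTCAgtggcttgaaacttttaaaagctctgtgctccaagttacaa
LRRC15, chr3:194369744-194369843, minus strand: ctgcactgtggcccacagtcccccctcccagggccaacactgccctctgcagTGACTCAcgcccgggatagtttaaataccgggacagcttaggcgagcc
These genes were picked for their size of change and the motif was searched afterward, so that the count is a description of these windows.

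Among glycolysis and hypoxia genes, 16 fell and 4 rose of 44, or 36.4% and 9.09%, and the median was -0.14. HIF1A, a transcription factor of the response to low oxygen, did not pass the test, at 370 to 502 against 305 to 406 (log2 fold change 0.28, adjusted p = 0.03). The classical hypoxia genes counted 11 down and 2 up of 21, with a median of -0.36. VEGFA, the angiogenic growth factor, was at 43.8, 54.4, 47.4 and 51.3 in selected and 82.8, 90.2, 94.8 and 90.9 in ancestral libraries (log2 fold change -0.86 ± 0.12 SE, adjusted p = 2.9e-05). VEGFC, a growth factor of lymphatic vessels, was at 20.7 to 31.9 against 43.5 to 54.6 (log2 fold change -0.84). ADM, which encodes adrenomedullin and is also a hypoxia gene, rose instead, at 43.9, 44.8, 47.8 and 43.8 against 24.6, 22.5, 21.1 and 23.9 (log2 fold change 0.94 ± 0.08 SE, adjusted p = 9.5e-08). The letters ACGTG, the core of the HIF binding site, stood in the windows of 10 of 13 down-regulated, 3 of 4 up-regulated and 11 of 22 uncalled members of the list, against 28.8% of all genes tested with a window, and thus in members of either direction.

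In cholesterol metabolism, 7 of 38 genes rose and 6 fell, or 18.4% and 15.8%, with a median of 0, and with median of ratios scaling 6 rose and 7 fell. Of the 4 synthesis genes that fell, EBP and NSDHL lie on chromosome X. EBP was at 62.2, 63.9, 48.2 and 63 against 121, 120, 124 and 107 (log2 fold change -0.99 ± 0.08 SE, adjusted p = 8.3e-08). ABCA1, which exports cholesterol, was at 2.16, 3.57, 2.64 and 3.85 against 8.64, 6.88, 7.59 and 6.8 (log2 fold change -1.08 ± 0.12 SE, adjusted p = 2e-06). NPC1, which moves cholesterol out of lysosomes, was at 99.7 to 105 against 81.4 to 84.2 (log2 fold change 0.31).

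ATF4, a transcription factor of amino acid and ER stress, was at 119 to 142 against 137 to 152, with overlapping groups (log2 fold change -0.11, adjusted p = 0.20). In the list of its targets and of the unfolded protein response, 4 of 44 rose and 9 fell, or 9.09% and 20.5%, and with chromosome medians removed 2 rose and 16 fell. NUPR1, a stress-induced chromatin protein, was at 1.34, 2.44, 3.73 and 3.15 against 10.2, 9.91, 7.13 and 8.89 (log2 fold change -1.49 ± 0.20 SE, adjusted p = 1.9e-05). SLC7A11, the cystine transporter that feeds glutathione synthesis, was at 41.7, 45.2, 50.4 and 47.7 against 24.9, 25.2, 27.1 and 24.8 (log2 fold change 0.83 ± 0.08 SE, adjusted p = 3.9e-07). Oxidative stress and xenobiotic genes, of which it is one, counted 6 up and 6 down of 39. This was 15.4% each, beside 18.1% and 10.9% of all genes. With median of ratios scaling 3 rose and 7 fell. PGD, an enzyme of the pentose phosphate pathway, was at 155 to 170 against 133 to 136 (log2 fold change 0.29, adjusted p = 0.00031). TXNRD1, a reductase of thioredoxin, was at 194 to 253 against 261 to 384, and AKR1B1, an aldose reductase, at 155 to 197 against 230 to 285 (log2 fold changes -0.60 and -0.52).

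Cytosolic ribosomal protein genes had 15 members down-regulated and none up-regulated of 78, or 19.2% and 0% beside 10.9% and 18.1% of all genes, with a median of -0.22. These genes are short and highly expressed. With all genes tested cut into 5 classes by coding length, the shortest had a median log2 fold change of -0.04 and the longest one of 0.10. The count of the list depended on scaling, with 25 down and 0 up with median of ratios and 22 and 0 with chromosome medians removed. It was 8 down and 1 up after quantile normalization. With the trend with coding length removed it was 16 down and 0 up, with a median of -0.15. RPS3A and RPL9, the pair with the smallest p, lie on chromosome 4, at 346 to 379 against 459 to 690 and at 183 to 209 against 245 to 445 (log2 fold changes -0.71 and -0.81). RPL39 lies on chromosome X and was at 614 to 764 against 1096 to 1851 (log2 fold change -1.04 ± 0.20 SE, adjusted p = 0.00046). Of 73 respiratory chain genes tested, 9 fell and 1 rose. The 12.3% that fell is near the 10.9% of all genes, and the 1.37% that rose compares with 18.1%. With chromosome medians removed 14 fell and 0 rose. Of the 9 down-regulated genes, 3 lie on X. One of them is COX7B, a subunit of cytochrome oxidase, at 201 to 237 against 319 to 378 (log2 fold change -0.71, adjusted p = 5.8e-07).

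Of 66 cell cycle genes, 10 rose and 7 fell, or 15.2% and 10.6% beside 18.1% and 10.9% of all genes. The balance turned with scaling, to 5 up and 12 down with median of ratios and 4 up and 10 down with chromosome medians removed. CDKN1A, the cyclin-dependent kinase inhibitor p21, was at 63.7, 61.3, 62.9 and 61.6 against 44, 40.6, 41.9 and 46.9 (log2 fold change 0.52 ± 0.06 SE, adjusted p = 4.8e-06). PCNA, the clamp of DNA polymerases, was at 148 to 173 against 209 to 235 (log2 fold change -0.47), and E2F1, which drives entry into S phase, at 61.6 to 73.1 against 84.1 to 92.7 (log2 fold change -0.40). Clustered histone genes counted 2 up and 2 down of 31, or 6.45% each, below the shares of all genes.

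Among epithelial and mesenchymal markers, 6 of 31 rose and 7 fell, or 19.4% and 22.6%, and on TPM 7 rose and 5 fell. By role, 3 of 6 transcription factors rose and 2 fell. Epithelial genes counted 3 up and 3 down of 19, and mesenchymal genes 0 up and 2 down of 6. PKP2, of this list, rose at 23 to 26.9 against 16.1 to 18.4 (log2 fold change 0.51). VIM did not pass the test, at 2185 to 2328 against 1939 to 2127 (log2 fold change 0.14, adjusted p = 0.082). SNAI1, a repressor of E-cadherin, was at 12, 12.5, 12.6 and 13 against 6.54, 4.82, 4.48 and 5.86 (log2 fold change 1.08 ± 0.10 SE, adjusted p = 4.3e-07), and ZEB1, another such repressor, at 28.3 to 34 against 22.7 to 25.5 (log2 fold change 0.41). KRT7, a keratin of simple epithelia, was at 227 to 276 against 352 to 414 (log2 fold change -0.57). S100A4, a calcium-binding protein of motile cells, was at 342, 392, 265 and 405 against 902, 698, 822 and 489 (log2 fold change -1.03 ± 0.15 SE, adjusted p = 4.8e-05). All 6 S100 genes called were down-regulated, of 10 tested, beside 10.9% of all genes. Every selected library lay below every ancestral one in 4 of the 10, beside 13.7% of all genes. S100A2 fell most, at 36.8, 25.5, 22.6 and 31 against 84.3, 76.5, 89.6 and 67.8 (log2 fold change -1.44 ± 0.15 SE, adjusted p = 1.2e-06). Many S100 genes lie together on chromosome 1.

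The neuropilins, receptors of semaphorins and VEGF, changed in opposite directions. NRP2 was at 73.3, 80.6, 85.5 and 97.9 against 45.4, 40.3, 38.2 and 43.9 (log2 fold change 0.99 ± 0.09 SE, adjusted p = 2.5e-07), and its relative NRP1 at 90.3, 103, 91.8 and 114 against 171, 161, 158 and 165 (log2 fold change -0.72 ± 0.07 SE, adjusted p = 4.3e-07). PLXNA1, a signaling partner of neuropilins, was at 45.8 to 55.8 against 84.1 to 95.9 (log2 fold change -0.81). Over the list of axon guidance genes, 8 of 39 rose and 9 fell, or 20.5% and 23.1%, and on TPM 9 rose and 8 fell. Through the ancestral libraries alone 1 of the 39 passed the filter, so that it could only be lower. Gap junction proteins, ion channels and enzymes of cyclic nucleotides counted 13 up and 4 down of 35. The 37.1% that rose compares with 18.1% of all genes, and the 11.4% that fell is near their 10.9%. After quantile normalization 9 rose and 5 fell. The filter was passed only through the selected libraries by 1 of the 35, which could thus only be higher. Developmental transcription factors counted 7 up and 6 down of 30 (5 and 8 after quantile normalization), none of the 6 HOX genes tested among them. Through the selected libraries alone 1 of the 30 passed the filter, so that it could only be higher. FOXQ1, a forkhead factor, was at 1.7, 1.72, 1.3 and 1.8 against 8.23, 5.51, 7.19 and 4.41 (log2 fold change -1.45 ± 0.15 SE), and TFAP2C, a factor of luminal progenitors that passed the filter only through the ancestral libraries and so could only be lower, at 0.59 to 0.942 against 2.85 to 3.4 (log2 fold change -1.19). DNMT3B, a DNA methyltransferase, was at 5.2 to 6.53 against 2.58 to 4.26 (log2 fold change 0.64, adjusted p = 0.00024).

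**Figure D5:**
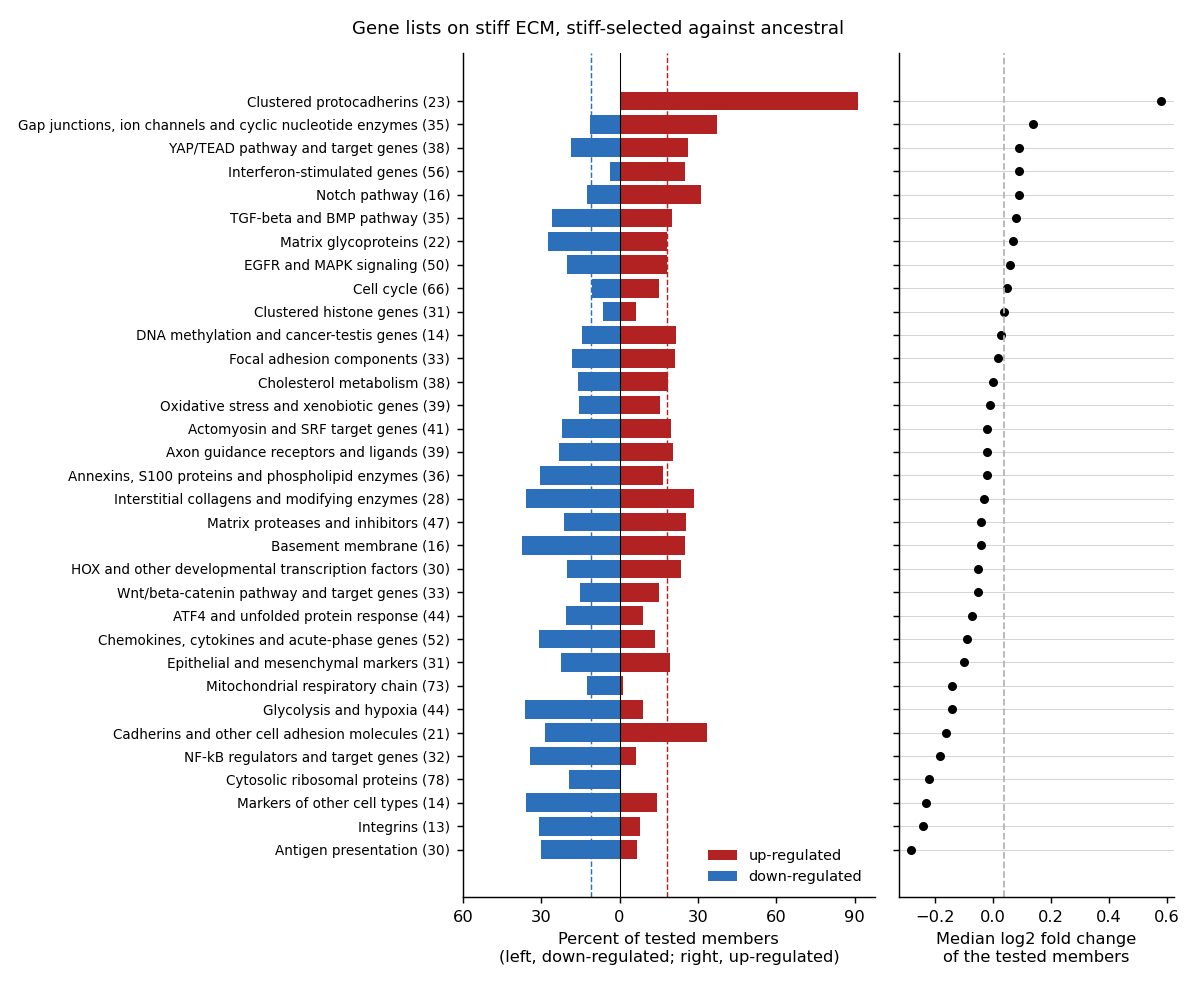
Each row is a gene list with its number of tested members in parentheses. Bars give the percent of them up-regulated (red, to the right) and down-regulated (blue, to the left), dashed lines mark 18.1% and 10.9% for all genes tested, and points in the right panel give the median log2 fold change, with clustered protocadherins highest at 0.58 and antigen presentation lowest at -0.28.

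Soft-selected cells, set against ancestral cells on soft ECM (1 kPa), gave a comparison with 8 other libraries but the same split of library name prefixes. On soft ECM 4480 of the same genes were called, or 36.6%. Of the 3546 genes called on stiff ECM, 3500 had the same sign on soft ECM and 2695 were also called there in the same direction. Any effect of what the prefix marks is part of each comparison. The difference between the effects on stiff and on soft ECM passed an adjusted p under 0.01 in 0 genes in limma on log2(FPKM + 1), with 1575 at an unadjusted p under 0.05, and in 0 genes with voom on recovered reads under either library size. At an adjusted p under 0.05 there were 40 genes, 0.327% of those tested, with 0.014 as the smallest adjusted p. VEGFA was among the 40, with a log2 fold change of -0.86 on stiff and 0.08 on soft ECM (difference -0.93, adjusted p = 0.027). So were TULP2, which rose less on stiff than on soft ECM (2.07 against 2.84, adjusted p = 0.024), and S100A3, a calcium-binding protein (-0.79 against -1.39, adjusted p = 0.039). MMP1 had 4.27 against 3.03, a difference that did not pass (adjusted p = 0.10). Chromosome X had a median of -0.44 on stiff and -0.39 on soft ECM, chromosome 14 had 0.23 and 0.25, and chromosome 4 had -0.12 and -0.11. Some other chromosomes differed more, with 0.03 and 0.17 on chromosome 15 and -0.06 and -0.21 on chromosome 21.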

How the data were processed

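Ribodepleted total RNA of MDA-MB-231 cells was sequenced in 16 libraries, and the 8 libraries on stiff ECM are compared here. Per the labels and the study's methods, the authors aligned paired reads to hg19 with STAR. No source used here names the counting tool or the gene models. The deposited table holds FPKM values per gene and library, with Entrez identifiers and symbols. FPKM values were whole multiples of 1 read for 100.0% of genes within 0.001 reads, and these recovered reads gave the depths and the voom alternatives.

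Genes with FPKM of at least 1 in at least 4 of the 8 libraries were tested on log2(FPKM + 1) with limma 3.58.1 in R 4.3.3 (4 group means over all 16 libraries, trended prior, Benjamini-Hochberg adjustment over all genes tested, called at an adjusted p under 0.01). Fold changes on this scale understate those of low genes. The fit was tested on simulated data. Gene lists, members and tests were chosen with earlier results of these data known, and lists and chromosomes carry no test. Named genes were the 15 with the largest change each way (called, groups without overlap, higher mean at least 5 FPKM), up to 5 called members of each list by p, genes that define a pathway, up to 3 genes of each extreme window, and paralogs that may share reads. CD44, AXL and the cell type markers given with them are label markers, and APEX1, CT83, HARS2 and PCDHGA12 bound windows. COL4A1, COL4A5, CXCL1, IL6, L1CAM and NSDHL were chosen after their values were seen.

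Chromosome and gene order came from a RefSeq table of GRCh38.p14, which gave a chromosome to 12216 genes. Gene windows of 25 neighbours were used. Promoter sequences are from RefSeq on that build. Alternatives changed the pseudocount, filter, scaling, prior, weights, depth, threshold and libraries in the fit. The prefix of the library names could not enter the fit, since it is the same split as selected against ancestral. Some genes and gene lists are not reported here.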

Additional observations from a re-analysis of the deposited data

Results flagged for a closer look

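A single library lay far from the other 3 of its group in 18 of 328 groups examined, 2 groups for each of 164 genes named. Chance gives such a gap in about 1 of 20 groups. Ancestral replicate 1 was high in BIRC3 (59.7 against 48.7 to 50.3 FPKM), CD14 (3.33 against 2.19 to 2.36) and HLA-B (328 against 259 to 267), and low in AXL (483 against 559 to 563). Ancestral replicate 4 was high in NSDHL (35.3 against 31.8 to 32.4), SPRY4 (44.2 against 33.7 to 35), TCF7L2 (27 against 20 to 20.9) and ZEB1 (25.5 against 22.7 to 23.1), and low in MYH9 (433 against 510 to 512). Ancestral replicate 3 was low in TGFB2 (95.2 against 112 to 114). Selected replicate 3 was high in COL4A2 (12.4 against 9.87 to 10.2) and PLAUR (134 against 111 to 112), and low in EBP (48.2 against 62.2 to 63.9), SRC (14.6 against 15.9 to 16.1) and TAGLN2 (268 against 340 to 346). Selected replicate 1 was high in RPL9 (209 against 183 to 186), selected replicate 2 low in LOXL1 (14.7 against 16.1 to 16.3) and selected replicate 4 high in IRF9 (29.9 against 26.8 in both the lowest and the highest of the others). Except for AXL, which did not pass the test, and CD14, whose call was lost (log2 fold change -0.57, adjusted p = 0.013), these genes kept their call when the library in question was left out.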

How the results depend on the processing

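The 3546 calls became 6529 (3932 up and 2597 down) with limma array weights, 5409 (3327 and 2082) at an adjusted p under 0.05, and 230 (130 and 100) when at least a 2-fold change was also asked for. The cause of the rise with array weights was not tested, and the other changes follow from the thresholds. Leaving out 1 library gave 2612 to 3967 calls, with 1633 to 2348 up and 979 to 1619 down, lowest without selected replicate 3 and highest without ancestral replicate 4. The split of directions went from 2648 up and 1113 down on TPM to 1730 and 1750 with median of ratios scaling, with 1818 and 1489 after quantile normalization, 1780 and 1788 with voom under median of ratios, and 1730 and 1723 with the coding length trend removed. With the replicate number as a block in the fit of the 8 libraries on stiff ECM, 2554 genes were called (1553 up and 1001 down), against 3109 without the block. Same-numbered libraries did not deviate together (correlations of -0.06, 0.01, 0.05 and -0.05), so that the numbers are not read as pairs. Of 164 genes named, 0 changed sign in a called value under any alternative. Fold changes of genes at a few FPKM rest on the least depth.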

Other observations

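The 4 stiff-selected libraries differed in how far they lay from the ancestral mean on chromosome X. The median log2 difference over its 387 genes was -0.49 and -0.54 in selected replicates 1 and 3, and -0.34 and -0.36 in replicates 2 and 4. Over the 1104 genes down-regulated outside chromosome X the same differences were -0.43 and -0.49 against -0.40 and -0.37. Up-regulated genes outside chromosome 14 (2040 genes) did not have this order, at 0.37, 0.41, 0.50 and 0.47 in replicates 1 to 4. These genes were called on the same libraries, so that the values are a description.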
